A study of Mus musculus with 4 samples.

Results

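The 10 genes described here are direct targets of the transcription factor p53: Cdkn1a, Ccng1, Bax, Pmaip1, Bbc3, Perp, Aen, Trp53inp1, Mdm2 and Sesn2. They were chosen by name, and all 10 were found among the 22686 genes of the deposited table. Each had a mean of at least 1 FPKM, the unit of read abundance normalised for transcript length and library size, as did 11471 genes in all. RNA was sequenced from epiblast stem cells (EpiSCs), pluripotent cells resembling the epiblast of the embryo just after implantation, from female material of embryonic day 6.5, from a cross of C57BL6/J with JF1 x C57BL6/J hybrids. The study compared cells deficient in SmcHD1, a chromatin protein that helps to keep the inactive X chromosome silent, with cells that have it. There were 4 groups of 1 library each: Smchd1 MD1/MD1 with Xist1lox/+, Smchd1 +/+ with Xist1lox/+, Smchd1 MD1/MD1 with XistdeltaA/+, and Smchd1 +/+ with XistdeltaA/+. All 4 groups thus carried a heterozygous mutation of Xist, the noncoding RNA that coats and silences the X chromosome. The labels do not say whether a library came from 1 cell line, 1 clone or several embryos. With no replicates, a difference within a pair of libraries has no replicate check.

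p53 is stabilised by DNA damage and other stresses, binds pairs of a decameric half-site near its target genes and raises their transcription. The targets stop the cell cycle (Cdkn1a), open the mitochondrial membrane in apoptosis (Bax, Pmaip1, Bbc3), or feed back on p53 itself (Mdm2). Pluripotent cells are known for high p53 protein levels and for entering apoptosis readily after damage.

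p53 sites lie in promoters, introns or farther away, and the promoter stretches of members that hold a match to the half-site are shown so that they can be compared. RefSeq promoter windows (GRCm38.p6, from 250 bases before to 50 after a gene's start) were matched by symbol for 7 of the 10 genes, in 11 windows. Pmaip1, Perp and Trp53inp1 were not matched. Capitals mark matches to the p53 half-site consensus, which reads the same on both strands. Each stretch is given 5′ to 3′ on the gene's strand.
Cdkn1a, chr17:29090856-29090978, plus strand: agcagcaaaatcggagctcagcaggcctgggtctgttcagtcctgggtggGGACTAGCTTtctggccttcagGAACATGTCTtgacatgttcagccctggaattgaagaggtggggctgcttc
Ccng1, chr11:40755412-40755521, minus strand: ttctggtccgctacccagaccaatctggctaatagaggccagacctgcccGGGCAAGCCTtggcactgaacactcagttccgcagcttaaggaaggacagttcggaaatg
Bax, chr7:45467040-45467148, minus strand: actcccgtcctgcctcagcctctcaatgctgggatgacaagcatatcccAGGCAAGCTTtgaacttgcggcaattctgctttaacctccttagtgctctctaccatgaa
Mdm2, chr10:117710885-117710994, minus strand: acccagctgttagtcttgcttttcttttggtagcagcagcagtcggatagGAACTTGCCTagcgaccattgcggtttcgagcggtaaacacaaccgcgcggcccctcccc
Aen, chr7:78895887-78895996, plus strand: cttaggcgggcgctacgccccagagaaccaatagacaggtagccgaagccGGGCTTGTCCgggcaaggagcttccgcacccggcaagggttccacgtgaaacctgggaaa

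At least 1 half-site match lay in the windows of 5 of the 7 genes, against 9.55% of 27025 genes with a window. A pair of half-sites at most 13 bases apart lay in 1 of the 7, Cdkn1a, against 20 of the 27025 genes (0.0740%). The marked Cdkn1a half-sites began 73 and 51 bases before the start, with 12 bases between them. The decamer directly after the second misses the consensus only at its first base, so it was not marked. The marked half-sites belong to the upstream start of the gene, and the window of its second start, 2790 bases downstream, held none. The match lay 185 bases before the start in Ccng1, 201 in Bax and 186 in Mdm2. The single match of Aen began 10 bases after its first start and 121 bases before its second start. Bbc3 and Sesn2 had no match to these letters within their windows. The bases after the start were found in a reference transcript of the gene for all windows except those of Bbc3. The result for Bbc3 is therefore less certain. A match describes the sequence and is not evidence of binding.

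The libraries held 7301034 to 8008500 allele-assigned reads, those that span a position where the parental strains differ. Smchd1 itself was at 5.98 FPKM in MD1/MD1 and 20.9 in +/+ with Xist1lox/+, and at 6.68 in MD1/MD1 and 27.0 in +/+ with XistdeltaA/+. It was lower in both MD1/MD1 libraries, as they are labelled (adjusted p = 0.173, limma over all genes tested). All 12 epiblast markers were expressed in every library, with summed levels of 2308 to 2856 FPKM. Single epiblast markers differed within the XistdeltaA/+ pair, counted on the log2(FPKM + 1) scale. There 3 of the 12 were at least 1.5-fold higher in MD1/MD1, against 9.22% of all genes tested, and 2 were at least 1.5-fold lower, against 9.29%. Markers of other cell types differed between the XistdeltaA/+ libraries as well. The 12 macrophage markers summed to 967 FPKM in MD1/MD1 and 22.7 in +/+ with XistdeltaA/+. In that +/+ library 11 of the 12 were under 1 FPKM, 5 of them at 0, and the exception was Cd68. Lyz2 alone made up 799 FPKM of the MD1/MD1 sum, and without it the sums were 168 in MD1/MD1 and 22.3 in +/+. The same sums were close with Xist1lox/+, at 311 FPKM in MD1/MD1 and 340 in +/+. The 10 fibroblast markers summed to 58.0 FPKM in MD1/MD1 and 58.3 in +/+ with Xist1lox/+, and to 122 in MD1/MD1 and 41.0 in +/+ with XistdeltaA/+. Neural and primitive endoderm markers stayed below 50 FPKM in every sum. The part of these cells in the differences within the XistdeltaA/+ pair, or between the Xist mutations, was not tested. In such bulk samples, fewer cells of a type and less RNA per cell cannot be told apart.

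**Figure D1:**
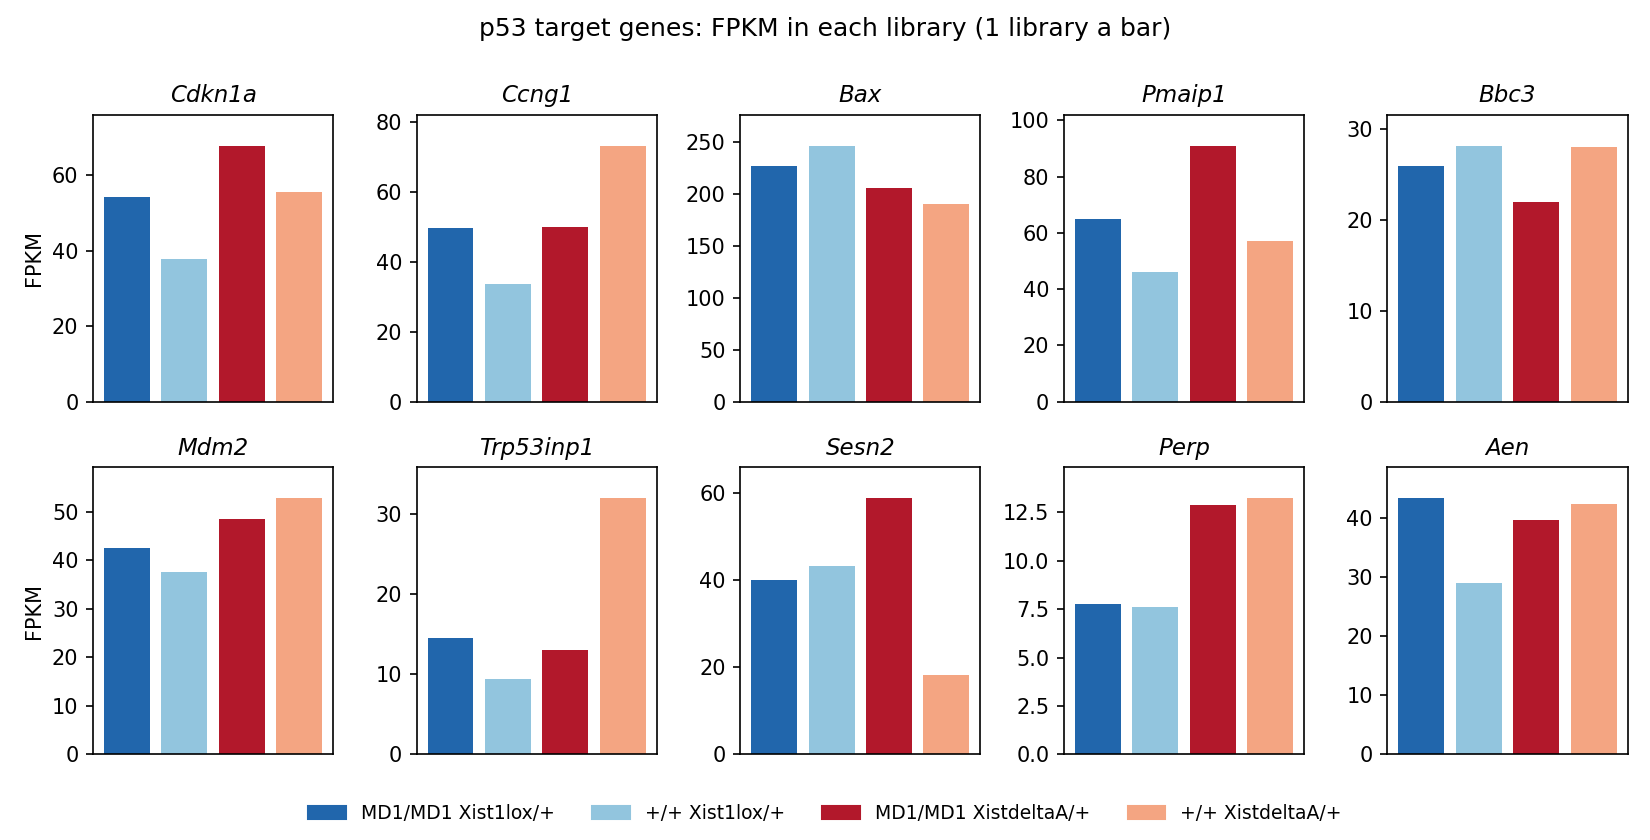
FPKM of the 10 p53 target genes (vertical axes start at 0 and differ between panels), 1 bar for each library, with no error bars since each group had 1 library. The +/+ Xist1lox/+ bar is the lowest of the 4 for 7 genes, among them Cdkn1a at 37.9 FPKM and Trp53inp1 at 9.40 FPKM.

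The first comparison asked whether p53 targets differ between MD1/MD1 and +/+ cells. Of the 10 genes, Cdkn1a and Pmaip1 were higher in MD1/MD1 in both pairs, Bbc3 was lower in both, and the other 7 went opposite ways in the 2 pairs. Of these 7, 5 were higher with Xist1lox/+ and lower with XistdeltaA/+, against 27.2% of all genes tested, and 2 were the reverse, against 21.4%. None passed the test across all genes. limma on log2(FPKM + 1), with Smchd1 genotype and Xist mutation as terms, called 0 of the 10 at an adjusted p under 0.05, against 4 of 11471 genes (0.0349%), and the lowest adjusted p among them was 0.937. At an unadjusted p under 0.05 the count was 1 of 10, Pmaip1, against 3.26% of all genes. edgeR and DESeq2 on the allele-assigned reads also called 0 of the 9 members with such reads, against 5 (0.0433%) and 22 (0.19%) of 11556 genes. At an unadjusted p under 0.05 edgeR had 2 of 9, Aen and Pmaip1, against 328 of 11556 genes. DESeq2 had 3 of 9, Sesn2, Aen and Pmaip1, against 305 of 11556. On these reads the fitted difference of Aen was -0.90, opposite to its FPKM. With 1 residual degree of freedom, limma did not call Smchd1 itself either (adjusted p = 0.173). The lack of calls therefore does not show that the members were unchanged. All differences below are on the log2(FPKM + 1) scale, MD1/MD1 minus +/+, which understates ratios of low genes.

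Among the genes of cell cycle arrest, Cdkn1a (mm9, chromosome 17, 29227931 to 29237667, plus strand) encodes p21, the inhibitor of cyclin-dependent kinases through which p53 halts the cycle. Its level was 54.2 FPKM in MD1/MD1 and 37.9 FPKM in +/+ with Xist1lox/+, and 67.8 FPKM in MD1/MD1 and 55.5 FPKM in +/+ with XistdeltaA/+. MD1/MD1 was thus higher in each pair, by 0.51 and 0.28, but the MD1/MD1 Xist1lox/+ library lay just under the +/+ XistdeltaA/+ library, so the genotypes overlapped. The fitted difference was 0.40 ± 0.16 (SE, 2 libraries against 2, adjusted p = 0.937, limma). Counts of allele-assigned reads, scaled to each library's total, gave log2 ratios of 0.43 (95% interval 0.32 to 0.53) and 0.28 (0.19 to 0.37). These intervals, and all others here, cover counting error only. The alleles around Cdkn1a also differed between the libraries of each pair, as described below.

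Ccng1 (chromosome 11, 40562054 to 40568788, minus strand) encodes cyclin G1, which brings a phosphatase to the Mdm2 protein. It was at 49.7 FPKM in MD1/MD1 and 33.7 FPKM in +/+ with Xist1lox/+, and at 50.03 FPKM in MD1/MD1 and 73.2 FPKM in +/+ with XistdeltaA/+. Both MD1/MD1 libraries were nearly level, with one +/+ library above them and the other below. The differences were 0.55 and -0.54, and the fitted difference was close to 0.

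Of the apoptosis genes, Pmaip1 (chromosome 18, 66618258 to 66625212, plus strand) encodes Noxa, a protein of the BCL2 family with a single BH3 domain that binds Mcl1. Pmaip1 had 64.9 FPKM in MD1/MD1 and 46.3 FPKM in +/+ with Xist1lox/+, and 91.0 FPKM in MD1/MD1 and 57.1 FPKM in +/+ with XistdeltaA/+. Both MD1/MD1 libraries lay above both +/+ libraries, an order that no other member had and that 13.8% of all genes had. The differences were 0.48 and 0.66, and the fitted difference was 0.57 ± 0.16 (SE, 2 libraries against 2, adjusted p = 0.937, limma). Read counts gave 0.45 (0.39 to 0.52) and 0.64 (0.58 to 0.69). In the XistdeltaA/+ pair the alleles around Pmaip1 also differed between the libraries, as described below.

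Bax (chromosome 7, 52717065 to 52722268, minus strand) encodes the protein that forms pores in the outer mitochondrial membrane. It was the most abundant of the 10 per kilobase, at 227 FPKM in MD1/MD1 and 247 FPKM in +/+ with Xist1lox/+, and at 206 FPKM in MD1/MD1 and 190 FPKM in +/+ with XistdeltaA/+. The differences were small and of opposite sign, -0.12 and 0.11. The alleles around Bax also differed between the libraries of each pair, as described below.

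Bbc3 (chromosome 7, 16894932 to 16903683, plus strand) encodes Puma, a BH3 protein that frees Bax from its inhibitors. Its level was 25.9 FPKM in MD1/MD1 and 28.2 FPKM in +/+ with Xist1lox/+, and 22.0 FPKM in MD1/MD1 and 28.0 FPKM in +/+ with XistdeltaA/+. Both MD1/MD1 libraries lay below both +/+ libraries, as in 18.9% of all genes, and the +/+ libraries were close to each other. The differences were -0.12 and -0.34, with an adjusted p of 0.937 from limma. Reads gave -0.55 (-0.80 to -0.30) and -0.23 (-0.51 to 0.052), from only 200 to 344 allele-assigned reads a library. In the Xist1lox/+ pair the alleles around Bbc3 also differed between the libraries, as described below.

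Perp (chromosome 10, 18564877 to 18576878, plus strand) encodes a membrane protein of desmosomes that also takes part in p53-driven cell death. It was the least abundant member, at 7.75 FPKM in MD1/MD1 and 7.63 FPKM in +/+ with Xist1lox/+, and at 12.9 FPKM in MD1/MD1 and 13.2 FPKM in +/+ with XistdeltaA/+. Within each pair the libraries were nearly level, with differences of 0.019 and -0.036, and the second turned to 0.019 with median-of-ratios size factors and 0.020 with quantile normalization.

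Aen (chromosome 7, 86040813 to 86053719, plus strand) encodes a nuclease that cuts DNA during apoptosis. It was at 43.4 FPKM in MD1/MD1 and 29.1 FPKM in +/+ with Xist1lox/+, and at 39.7 FPKM in MD1/MD1 and 42.4 FPKM in +/+ with XistdeltaA/+. The +/+ Xist1lox/+ library was low and the other 3 were close together, giving differences of 0.56 and -0.091. Allele-assigned reads of Aen went against FPKM in the Xist1lox/+ pair, with a log2 ratio of -0.54 (-0.77 to -0.31), and gave -1.27 (-1.49 to -1.07) in the XistdeltaA/+ pair. The direction of Aen therefore depends on the measure.

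Trp53inp1 (chromosome 4, 11083588 to 11101524, plus strand) encodes a stress protein that promotes p53 phosphorylation and autophagy. Its level was 14.5 FPKM in MD1/MD1 and 9.40 FPKM in +/+ with Xist1lox/+, and 13.05 FPKM in MD1/MD1 and 32.0 FPKM in +/+ with XistdeltaA/+. The +/+ XistdeltaA/+ library stood far above the other 3. The differences were 0.58 and -1.23, and reads gave 0.66 (0.53 to 0.80) and -1.34 (-1.45 to -1.23).

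Mdm2 (chromosome 10, 117125931 to 117147814, minus strand) encodes the ubiquitin ligase that degrades p53 and closes the negative feedback loop. It had 42.5 FPKM in MD1/MD1 and 37.5 FPKM in +/+ with Xist1lox/+, and 48.6 FPKM in MD1/MD1 and 52.8 FPKM in +/+ with XistdeltaA/+. Both XistdeltaA/+ libraries were above both Xist1lox/+ libraries, while the Smchd1 differences were only 0.18 and -0.12.

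Sesn2 (chromosome 4, 132048722 to 132066371, minus strand) encodes a sestrin, which restrains mTORC1 and is known to respond to the transcription factor ATF4 as well as to p53. It had 40.0 FPKM in MD1/MD1 and 43.1 FPKM in +/+ with Xist1lox/+, and 58.7 FPKM in MD1/MD1 and 18.2 FPKM in +/+ with XistdeltaA/+. The +/+ XistdeltaA/+ library was the low one, giving a difference of 1.64 there against -0.11 in the Xist1lox/+ pair. Reads gave -0.19 (-0.31 to -0.064) in the Xist1lox/+ pair and 1.87 (1.73 to 2.02) in the XistdeltaA/+ pair.

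**Figure D2:**
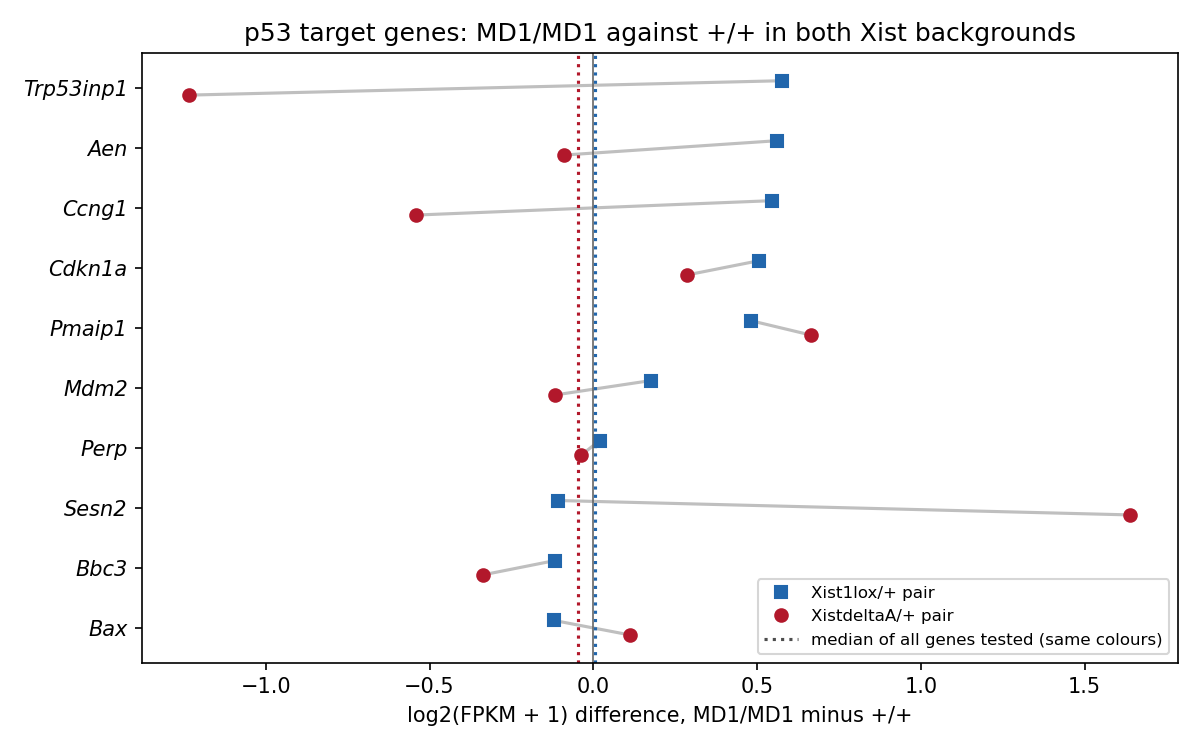
Difference of log2(FPKM + 1) between MD1/MD1 and +/+ for the 10 p53 target genes, with squares for the Xist1lox/+ pair, circles for the XistdeltaA/+ pair and dotted lines at the medians of all 11471 genes tested. Sesn2 (-0.11 and 1.64) and Trp53inp1 (0.58 and -1.23) lie farthest apart between the pairs, while Cdkn1a and Pmaip1 lie to the right of 0 in both.

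Counted over the list, 7 of the 10 genes were higher in MD1/MD1 in the Xist1lox/+ pair, where 50.8% of all genes tested were, and 3 were lower (49.2% of all genes). In the XistdeltaA/+ pair 4 were higher (45% of all genes) and 6 lower (55%), or 5 and 5 with size factors or quantile normalization, where Perp turned. The median difference of the list was 0.33 in the Xist1lox/+ pair, beside 0.0040 over all genes, and -0.064 in the XistdeltaA/+ pair, beside -0.048. On allele-assigned reads per library total, which cover the 9 members other than Bax, these medians were 0.15 and -0.22. At 1.5-fold or more on the log2(FPKM + 1) scale, no member passed in the Xist1lox/+ pair, where 1.57% of genes were higher and 1.62% lower. Trp53inp1 missed it there only through the added 1 FPKM, since its plain FPKM ratio was 1.54. In the XistdeltaA/+ pair 2 members were at least 1.5-fold higher, Sesn2 and Pmaip1, against 9.22% of genes, and Trp53inp1 was at least 1.5-fold lower, against 9.29%. Higher in both pairs were 2 of 10, against 23.6% of all genes, and lower in both was 1 of 10, against 27.8%. The XistdeltaA/+ pair is also the one in which macrophage markers summed to 967 FPKM in MD1/MD1 and 22.7 FPKM in +/+, or 168 and 22.3 FPKM without Lyz2. Whether the pairs differ could not be tested, since a term for it leaves no residual among 4 libraries.

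The second comparison asked whether the Xist mutation, Xist1lox/+ or XistdeltaA/+, made a difference. It uses the same 4 libraries as the first. The macrophage markers also differed between the Xist mutations. Among +/+ libraries they summed to 340 FPKM with Xist1lox/+ and 22.7 FPKM with XistdeltaA/+. Among MD1/MD1 libraries the sums were 311 FPKM with Xist1lox/+ and 967 FPKM with XistdeltaA/+. Their part in the differences of the members was not tested. limma called 0 of 10 members and 0 of 11471 genes (0%). edgeR also called 0 genes and DESeq2 called 5 of 11556 (0.0433%), none of them a member. At an unadjusted p under 0.05 limma had 2 of 10 members, Perp and Cdkn1a, against 368 genes (3.21%), and edgeR had 1 of 9, Perp, against 345 genes (2.99%). Perp, with the values given above, was lower in both Xist1lox/+ libraries than in both XistdeltaA/+ libraries, by 0.67 in MD1/MD1 and by 0.72 in +/+. Its fitted difference was -0.69 ± 0.18 (SE, 2 libraries against 2, adjusted p = 0.927, limma). Cdkn1a was lower in both Xist1lox/+ libraries as well, with a fitted difference of -0.43 ± 0.16 (SE, adjusted p = 0.927, limma). Mdm2 and Ccng1 had the same order, with fitted differences of -0.33 ± 0.17 and -0.55 ± 0.28 (SE, adjusted p = 0.927 for both, limma). For Ccng1 the order rests on the +/+ libraries, with a difference of -1.09 there and of -0.0089 in MD1/MD1, where reads gave -0.012 (-0.090 to 0.065). Both Xist1lox/+ libraries thus lay below both XistdeltaA/+ libraries for 4 members, against 17.9% of all genes, and above them for 1, Bax, against 20%. Within each Smchd1 genotype the alleles around Bax also differed between the Xist mutations, as described below.

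Among MD1/MD1 libraries 6 of the 10 were lower with Xist1lox/+ than with XistdeltaA/+, against 44.4% of all genes, and 4 were higher, against 55.6%, with a list median of -0.098 beside 0.036 over all genes. With quantile normalization it was 7, as Bax turned to -0.012. Perp was the 1 member at least 1.5-fold lower there (5.34% of genes), and none was at least 1.5-fold higher (1.8%). Among +/+ libraries 7 of 10 were lower with Xist1lox/+, against 52.3%, and 3 were higher, against 47.7%, and the list median was -0.50 beside -0.021. The members at least 1.5-fold lower were Ccng1, Trp53inp1 and Perp (7.22% of genes), and Sesn2 was at least 1.5-fold higher (6.94%). Ccng1 was 1.09 and Trp53inp1 1.67 lower on the log2 scale in +/+ Xist1lox/+ than in +/+ XistdeltaA/+, whereas Sesn2 was 1.20 higher. Among the 4 libraries +/+ Xist1lox/+ was the lowest for 7 of the 10 members, against 23.3% of all genes, and +/+ XistdeltaA/+ was the highest for 4, against 37.3%.

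The p53 pathway beyond the 10 members was read from lists, described by counts and medians with no test of a list. p53 itself, Trp53, was at 175 FPKM in MD1/MD1 and 201 FPKM in +/+ with Xist1lox/+, and at 168 FPKM in MD1/MD1 and 133 FPKM in +/+ with XistdeltaA/+, so its differences were -0.20 and 0.33. Mdm4, which encodes an Mdm2 relative that blocks p53 activity, had differences of 0.089 and -0.68. Of 20 measured regulators of p53, including Trp53, 12 were higher in MD1/MD1 in the Xist1lox/+ pair and 10 in the XistdeltaA/+ pair. The shares of all genes were 50.8% and 45%. The medians of the regulators were 0.019 and 0.053. The most abundant others were Usp7, which encodes a deubiquitinase of Mdm2 and p53 (0.039 and -0.044), Kat5 (-0.073 and -0.40), which encodes an acetyltransferase, and Daxx (-0.044 and 0.73), which encodes a histone chaperone.

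Of 34 other p53 targets measured, 21 were higher and 13 lower in MD1/MD1 in the Xist1lox/+ pair, against 50.8% and 49.2% of all genes. In the XistdeltaA/+ pair 11 were higher and 23 lower, against 45% and 55% of all genes. The medians of the 34 were 0.063 and -0.30, and with size factors the second count was 12 higher and 22 lower. The +/+ Xist1lox/+ library was the lowest for 8 of the 34, against 23.3% of all genes, and +/+ XistdeltaA/+ was the highest for 20, against 37.3%. The most abundant were Rps27l, Ddit4, Psrc1 and Sfn. Ddit4, which encodes an inhibitor of mTORC1, was at 174 FPKM in MD1/MD1 and 178 FPKM in +/+ with Xist1lox/+, and at 88.1 FPKM in MD1/MD1 and 346 FPKM in +/+ with XistdeltaA/+. Its high library was thus the one in which Trp53inp1 was high and Sesn2 low. Psrc1, which encodes a spindle protein, had differences of 0.13 and -0.64, and Sfn, which encodes the checkpoint protein 14-3-3 sigma, had -0.022 and 0.40. Rps27l had 0.035 and -0.22, and its values are uncertain, since its close relative Rps27 may share reads.

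Of the 34, 2, named after their values were seen, were at least 1.5-fold apart in the Xist1lox/+ pair. Among all genes, 1.57% were at least 1.5-fold higher in that pair and 1.62% lower. Phlda3, which encodes a repressor of Akt signalling, was at 48.8 FPKM in MD1/MD1 and 30.4 FPKM in +/+ there. Eda2r, an X-linked receptor gene of the tumour necrosis factor receptor family, was at 7.53 FPKM in MD1/MD1 and 3.25 FPKM in +/+. In the XistdeltaA/+ pair both lay the other way, with differences of -0.51 for Phlda3 and -0.47 for Eda2r.

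Genes of cell division that p21 is known to lower were examined because Cdkn1a was higher in MD1/MD1 in both pairs. The alleles around Cdkn1a also differed between the Smchd1 genotypes, as described below. Whether p21 had a part in the values of these genes was not tested. In the Xist1lox/+ pair 10 of these 16 genes were higher and 6 lower in MD1/MD1 (12 and 4 with quantile normalization), with a median of 0.021. Of all genes, 50.8% were higher and 49.2% lower there. In the XistdeltaA/+ pair 3 were higher and 13 lower, against 45% and 55% of all genes, with a median of -0.61. In that pair 9 were at least 1.5-fold lower, against 9.29% of all genes. Macrophage markers summed to 967 FPKM in MD1/MD1 and 22.7 FPKM in +/+ there, and their part was not tested. Cdc20, the activator of the anaphase-promoting complex, was at 284 FPKM in MD1/MD1 and 259 FPKM in +/+ with Xist1lox/+, and at 212 FPKM in MD1/MD1 and 400 FPKM in +/+ with XistdeltaA/+. The mitotic kinase gene Plk1 followed the same order, with differences of 0.026 and -0.92. Birc5, which encodes survivin, had differences of -0.14 and -0.17. Mcm5, a gene of the replicative helicase, had 0.13 and 0.12. None passed limma at an adjusted p under 0.05.

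Among 10 other genes of the BCL2 family the medians were 0.041 and 0.15. Mcl1, the survival protein that Noxa binds, had differences of 0.18 and 0.032, Bak1, the relative of Bax, 0.078 and 0.56, Bid -0.011 and 0.33, and Bok 0.13 and 0.60. Other inhibitors of cyclin-dependent kinases had medians of -0.12 and 0.82 over 5 genes. Cdkn2a, whose ARF product holds Mdm2 away from p53, was at 6.10 FPKM in MD1/MD1 and 6.70 FPKM in +/+ with Xist1lox/+, and at 25.3 FPKM in MD1/MD1 and 2.24 FPKM in +/+ with XistdeltaA/+. That is the same order of libraries as for the summed macrophage and fibroblast markers with XistdeltaA/+. The remaining CDK inhibitor genes with the highest levels were Cdkn1c (-0.97 and 0.82), Cdkn1b (0.016 and -0.96) and Cdkn2b (-0.0053 and 2.0).

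The list of the ATF4 stress response was included because Sesn2 is known to answer to ATF4 too. In the Xist1lox/+ pair 9 of 9 measured genes were lower in MD1/MD1, against 49.2% of all genes, with a median of -0.37. In the XistdeltaA/+ pair 9 of 9 were higher, against 45% of all genes, with a median of 0.73. Atf4 was at 442 FPKM in MD1/MD1 and 561 FPKM in +/+ with Xist1lox/+, and at 417 FPKM in MD1/MD1 and 256 FPKM in +/+ with XistdeltaA/+. Psat1 and Phgdh, of serine synthesis, had differences of -0.37 and 0.73 and of -0.21 and 0.44, and Asns, asparagine synthetase, had -0.68 and 0.20. The +/+ XistdeltaA/+ library was the lowest for 9 of the 9, against 30.2% of all genes. Of the 10 p53 targets it was the lowest for 2, Sesn2 and Bax. Whether ATF4 had a part in the Sesn2 values was not tested. None of these genes passed limma at an adjusted p under 0.05.

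**Figure D3:**
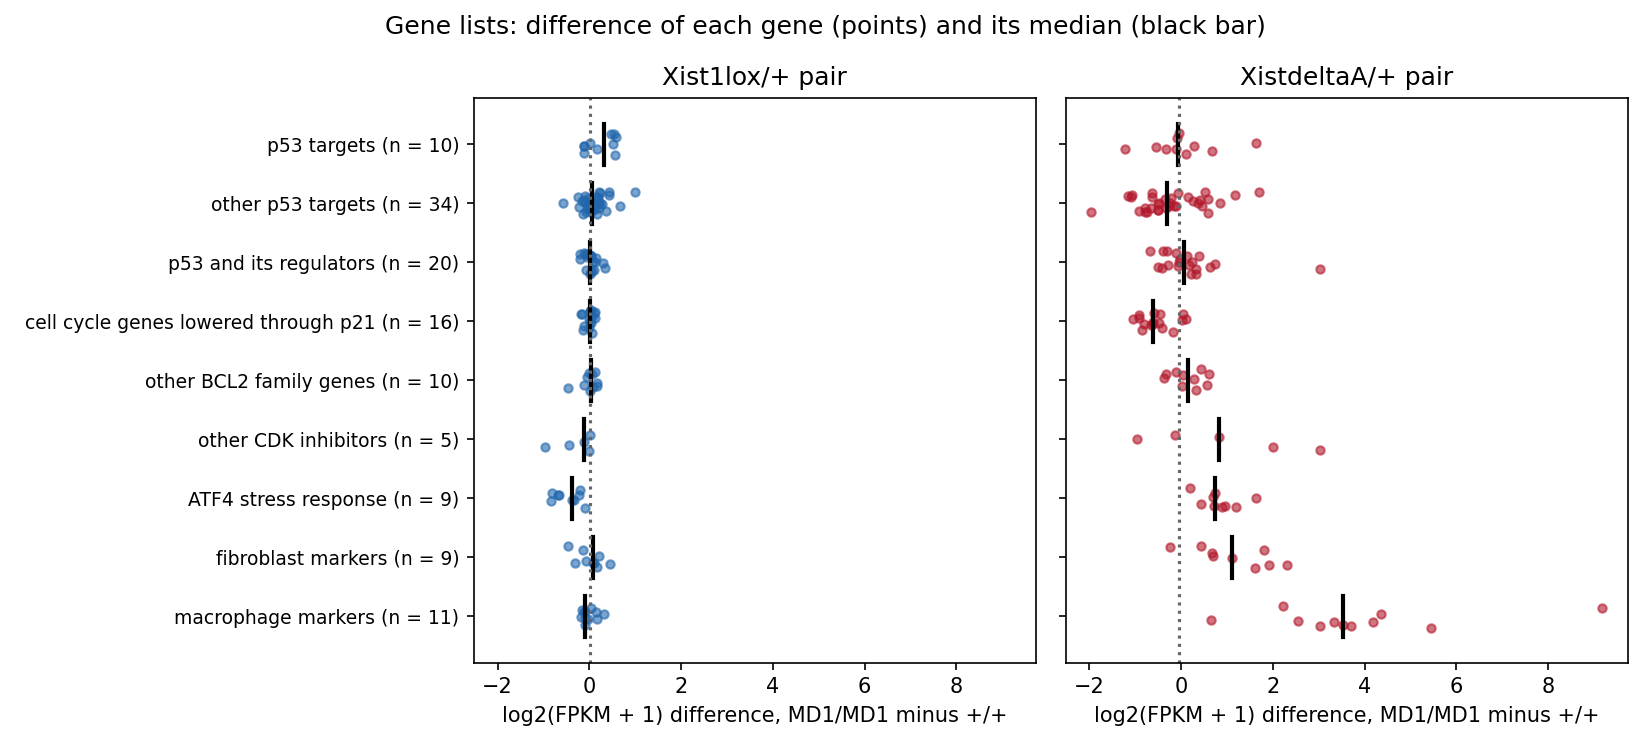
Difference of log2(FPKM + 1), MD1/MD1 minus +/+, for every measured gene of the lists drawn (points). The lists are those of p53 targets and regulators, cell division, the BCL2 family, CDK inhibitors, ATF4, and fibroblast and macrophage markers. The median of each list is a black bar and that of all genes tested a dotted line. On the left, the Xist1lox/+ pair, the 10 p53 targets have a median of 0.33, and on the right, the XistdeltaA/+ pair, the macrophage markers reach 9.18 while the p53 targets run between -1.23 and 1.64.

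Reads that cover a strain variant show how much of each transcript came from the paternal allele. The cross leaves some regions of a library with maternal-type alleles alone, so each share was set beside the median share of genes within 5 Mb. A region counted as maternal-type only where that median was under 5%, which held for 12 of the 40 combinations of member and library. Bax had no allele-assigned reads. Its region was maternal-type only in MD1/MD1 Xist1lox/+ and in +/+ XistdeltaA/+, and had both alleles in the other libraries. Region and Smchd1 genotype therefore cannot be told apart for Bax in either pair. The same holds for region and Xist mutation within each Smchd1 genotype. For Ccng1, Trp53inp1, Sesn2 and Perp the region had both alleles in all 4 libraries.

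Cdkn1a lay in a maternal-type region in both MD1/MD1 libraries and in a region with both alleles in both +/+ libraries. The allele around the gene and the Smchd1 genotype therefore cannot be told apart for Cdkn1a. Its paternal share was 3.56% (2.71 to 4.58, exact Clopper-Pearson interval at 95%) in MD1/MD1 and 48.6% in +/+ with Xist1lox/+, and 7.37% (6.33 to 8.52) in MD1/MD1 and 49.4% in +/+ with XistdeltaA/+. Both MD1/MD1 shares lay above the regional medians of 0%. In each of these libraries 2 of the 137 genes within 5 Mb, and 0 of the 38 within 2 Mb, had a higher share. The reads counted were 1630 with Xist1lox/+ and 2266 with XistdeltaA/+.

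For Mdm2 and Aen the arrangement was the reverse, with both alleles in the MD1/MD1 libraries and maternal-type alleles alone in the +/+ libraries. For these genes too, region and genotype cannot be told apart. The paternal share of Mdm2 was 42.6% in MD1/MD1 and 0% in +/+ with Xist1lox/+ (0 of 1482 reads, with an exact upper limit of 0.249%, or 0.202% for 3 reads). With XistdeltaA/+ it was 33.9% (31.8 to 36.2) in MD1/MD1, below the regional median of 46.4%, and 0.143% in +/+. Aen shares were 55.3% in MD1/MD1 and 0% in +/+ with Xist1lox/+ (0 of 411 reads, with an exact upper limit of 0.894%, or 0.730% for 3 reads), and 55.8% in MD1/MD1 and 0.157% in +/+ with XistdeltaA/+.

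Pmaip1 was the member whose shares stood farthest from its region. In MD1/MD1 Xist1lox/+ its paternal share was 18.7% (17.5 to 19.9), beside a regional median of 50.1%, and in +/+ Xist1lox/+ it was 2.56% (2.05 to 3.16), beside 50.1%. In MD1/MD1 XistdeltaA/+ the region was maternal-type only and the share was 0.294%, and in +/+ XistdeltaA/+ it was 29.7% (28.3 to 31.1), beside 50.7%. Within the XistdeltaA/+ pair, region and genotype therefore cannot be told apart for Pmaip1. In each of the 3 libraries with both alleles, all 39 genes within 5 Mb had a higher share than Pmaip1. The number of reads was large, 3315 to 6469 a library.

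Within the Xist1lox/+ pair, region and genotype cannot be told apart for Bbc3 either. Bbc3 had both alleles around it in the +/+ Xist1lox/+ library alone. Its paternal share was 13.2% (9.05 to 18.5) in MD1/MD1 and 68.9% (63.7 to 73.8) in +/+ with Xist1lox/+, the second above the regional median of 50.1%. With XistdeltaA/+ it was 11% (7.02 to 16.2) in MD1/MD1 and 9.17% (5.77 to 13.7) in +/+. All 3 low shares lay above regional medians of 0%, 1.25% and 0%. In MD1/MD1 XistdeltaA/+ the region within 5 Mb was mixed, with 41 of 78 genes under a share of 5% and 36 above the share of Bbc3. Within 2 Mb, 24 of 26 genes were under 5%, with a median of 0.045%, and 1 had a higher share than Bbc3.

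Ccng1 shares were 46.8% in MD1/MD1 and 43.9% in +/+ with Xist1lox/+, and 32.5% (30.8 to 34.2) in MD1/MD1 and 51.0% in +/+ with XistdeltaA/+. The low share stood against a regional median of 48.9%, and all 13 genes around it were higher. Perp shares were 37.2% in MD1/MD1 and 42.9% in +/+ with Xist1lox/+, and 26.7% in MD1/MD1 and 30.9% in +/+ with XistdeltaA/+, below the regional medians of 45.1% to 51.2% by more than counting error in all but +/+ Xist1lox/+. Trp53inp1 shares lay between 36.6% and 45.5% and Sesn2 shares between 42.9% and 53.02%. The difference of Sesn2 in the XistdeltaA/+ pair was present on both alleles, with 29.5 FPKM in MD1/MD1 and 10.4 FPKM in +/+ attributed to the maternal allele, and 29.2 FPKM in MD1/MD1 and 7.79 FPKM in +/+ to the paternal one. That of Trp53inp1 was too, with 8.27 FPKM in MD1/MD1 and 17.4 FPKM in +/+ on the maternal allele and 4.78 FPKM in MD1/MD1 and 14.6 FPKM in +/+ on the paternal one.

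**Figure D4:**
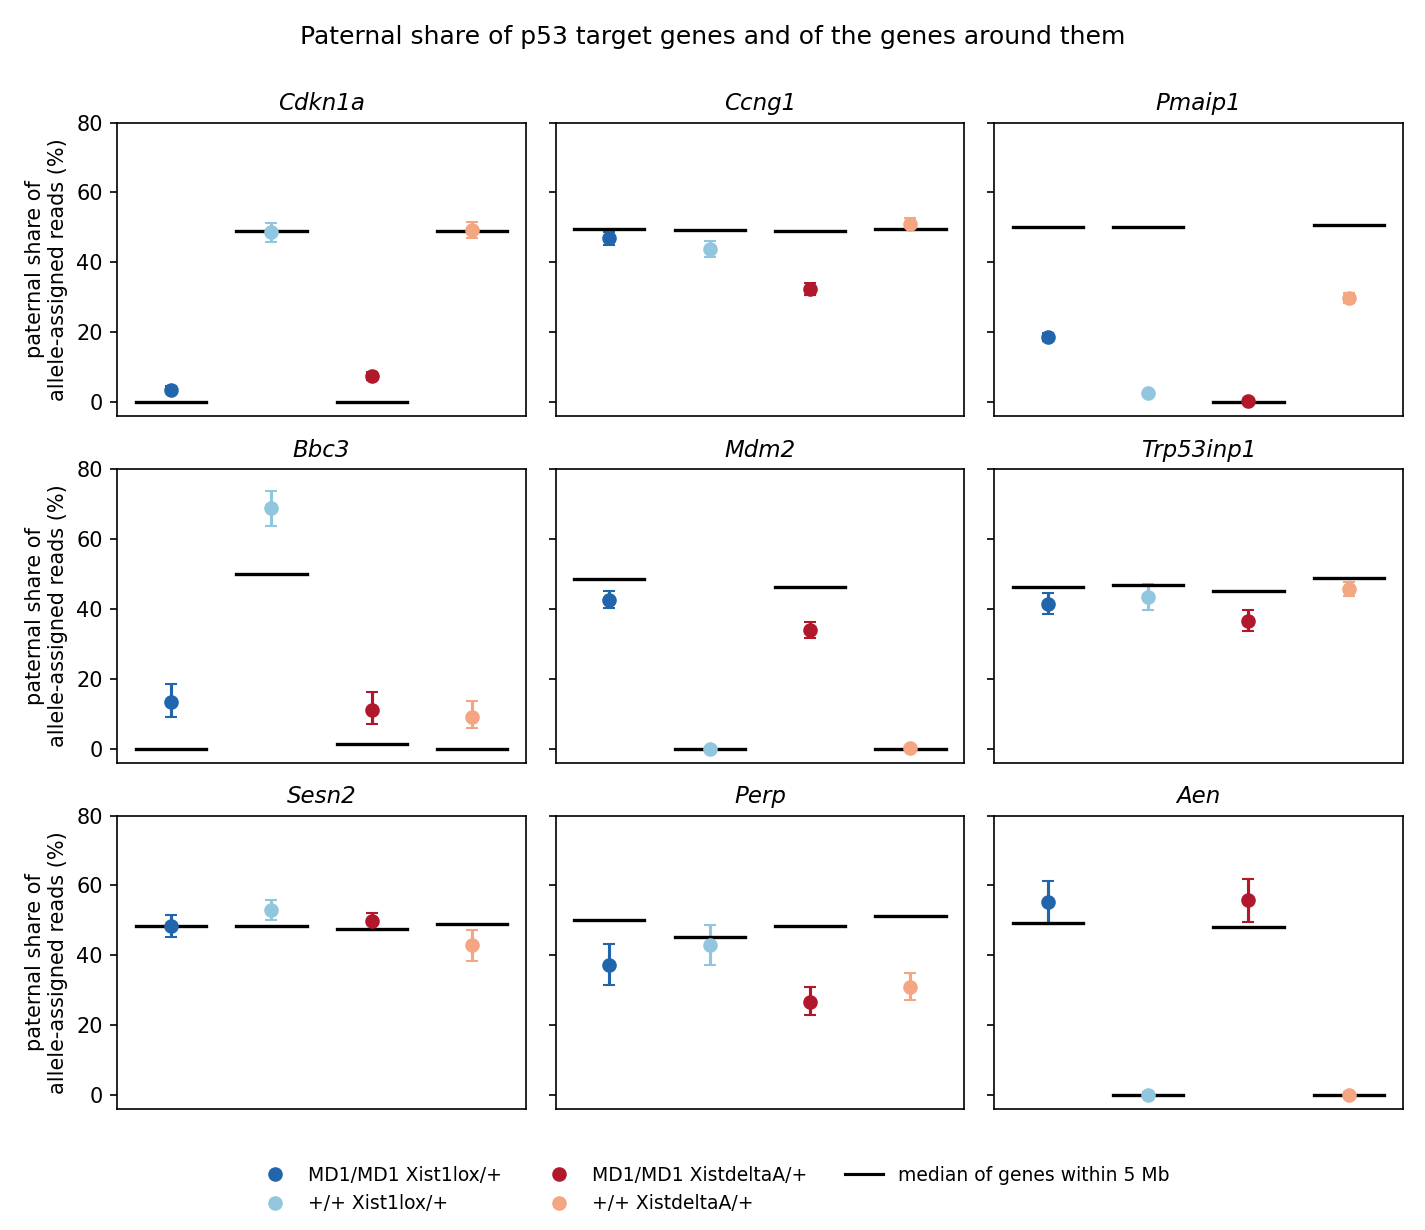
Paternal share of allele-assigned reads (percent, with exact 95% intervals for counting error) of the 9 p53 target genes that have such reads, 1 point a library, with the median of the genes within 5 Mb as a black line. Pmaip1 lies far below its line in 3 libraries, and Cdkn1a in both MD1/MD1 libraries lies above a line at 0%.

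The mean profile of the 10 members, each centred over the 4 libraries, was -0.0065 in MD1/MD1 Xist1lox/+, -0.26 in +/+ Xist1lox/+, 0.15 in MD1/MD1 XistdeltaA/+ and 0.12 in +/+ XistdeltaA/+ on the log2 scale. Mdm2 was the member closest to it, with a root mean square difference of 0.069, and Sesn2 the farthest, with 0.65. The 5 genes outside the list with the most similar profile over the 4 libraries were Tmem150a (0.015), Atrnl1 (0.016), Zc3h12c (0.016), Twsg1 (0.019) and Ctdspl (0.021). Tmem150a, for example, was at 7.91 FPKM in MD1/MD1 and 6.70 FPKM in +/+ with Xist1lox/+, and at 9.03 FPKM in MD1/MD1 and 8.78 FPKM in +/+ with XistdeltaA/+.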

How the data were processed

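RNA of 4 EpiSC samples was extracted with TRIzol and sequenced as stranded mRNA libraries, according to the protocols in the labels. Build mm9, Cufflinks 2.2.1 and Cuffdiff are named, per the submitters' processing notes, and no aligner is named there. Per gene and library the authors deposited a count of allele-assigned reads, the paternal fraction of those reads, and FPKM, whose scaling between libraries is not stated. Another 6 columns of per-sample values were not used. A model with Smchd1 genotype and Xist mutation was fitted with limma 3.58.1 (trend) to log2(FPKM + 1) of genes with a mean of at least 1 FPKM, which leaves 1 residual degree of freedom, and p-values were adjusted by Benjamini-Hochberg over 11471 genes. FPKM was preferred because the counts cover strain variants only. edgeR 4.0.16 and DESeq2 1.42.0 on those counts (mean of at least 10) were alternatives. Members and lists were chosen with earlier results of these data known. Named genes are all members, Trp53, Mdm4 and, of each other list, those past the test or at least 1.5-fold apart the same way in both pairs, otherwise the 4 with the highest mean FPKM. limma was also run on simulated data, whose outcome is not given here. Depth was 7301034 to 8008500 allele-assigned reads.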

Additional observations from a re-analysis of the deposited data

Results flagged for a closer look

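Of the 10 p53 targets, 7 were higher in MD1/MD1 in one pair of libraries and lower in the other, and this difference between the pairs was not tested. The log2(FPKM + 1) difference of MD1/MD1 and +/+ in the Xist1lox/+ pair minus that in the XistdeltaA/+ pair was 1.81 for Trp53inp1, 1.09 for Ccng1 and 0.65 for Aen. It was 0.29 for Mdm2 and 0.056 for Perp. It was negative for Sesn2 (-1.75) and Bax (-0.23). For Perp the sign in the XistdeltaA/+ pair depended on the scaling between libraries.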

How the results depend on the processing

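No member was called under any setting; the lowest adjusted p was 0.926 for the Smchd1 genotype and 0.837 for the Xist mutation. Filters on FPKM and leaving out the other factor cannot change a fitted value of a member in this design. Under the other settings that keep all libraries, the sign of the fitted Smchd1 difference was as reported in 40 of 48 values of members and that of the Xist difference in 48 of 48. The exceptions were Bax (0.027 with size factors and 0.013 with quantile normalization, against -0.0046), Perp (0.021 and 0.011, against -0.0087), Mdm2 (-0.038 with edgeR and -0.034 with DESeq2 on allele-assigned reads, against 0.029) and Aen (-0.90 with both, against 0.24); the cause was not tested. Over all genes, the 4 calls for the Smchd1 genotype became 0 with no filter on low FPKM (567 genes at an unadjusted p under 0.05), with more genes tested, and 22 with DESeq2; the 0 calls for the Xist mutation became 5 with DESeq2. The median of the members ran from 0.15 to 0.33 in the Xist1lox/+ pair and from -0.22 to -0.0068 in the XistdeltaA/+ pair, with 0.15 and -0.22 from allele-assigned reads of 9 members; Xist1lox/+ over XistdeltaA/+ gave -0.17 to -0.098 in MD1/MD1 and -0.52 to -0.48 in +/+. Leaving out 1 library leaves the difference of the complete pair, with no test. The sign of the Smchd1 difference then turned in one pair for 7 of 10 members (Ccng1, Bax, Mdm2, Trp53inp1, Sesn2, Perp and Aen), and that of the Xist difference for 3, Trp53inp1 (0.14 in MD1/MD1), Sesn2 (-0.54) and Aen (0.13). Regional status was the same at 2 and 5 Mb in 40 of 40 cases. No paired analysis was possible because the labels carry no replicate numbers to pair by; the Xist term of the model sets MD1/MD1 against +/+ within each Xist mutation, and without that term limma called 6 genes for the Smchd1 genotype. Depth limits Bbc3, Perp and Aen most.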
